A study of Rattus norvegicus with 12 samples.

Results

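The genes that make and break down progesterone were examined in rat ovary. Of 7 names on the list (Star, Cyp11a1, Fdx1, Fdxr, Akr1c18, Tspo and Stard3), 6 were found by name among the 19730 genes measured. No gene in the table carried the name Akr1c18. RefSeq, in its gene table for GRCr8, gives Akr1c18 as an older symbol of Akr1c3, which the table holds, so its values are given as Akr1c3 (formerly Akr1c18) and it is kept out of the counts over the 6 genes. Ovarian RNA was sequenced from 12 female wild-type Sprague Dawley rats aged 15 weeks, in 1 library per rat and 4 libraries per group. The control group ate standard food. The PCOS group received letrozole, an aromatase inhibitor that blocks the conversion of androgens to estrogens, together with a high-fat diet (HFD) for 30 days, as a model of polycystic ovary syndrome (PCOS). The PCOS-MV group received the same letrozole and HFD and then mogroside V (MV), a sweet triterpene glycoside from monk fruit, for 30 days. By the paper's methods all rats were killed at the end of the MV period, so PCOS ovaries were taken about 30 days after letrozole ended. The methods do not say what the PCOS group received in that time. Letrozole and the HFD were given together, so their separate effects cannot be told apart, and PCOS rats were chosen by vaginal smears that stayed in metestrus and diestrus, the later stages of the cycle.

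Steroid-producing cells make progesterone from cholesterol. The protein of Star, the steroidogenic acute regulatory protein, moves cholesterol to the inner mitochondrial membrane, where the side-chain cleavage enzyme of Cyp11a1 turns it into pregnenolone. That enzyme takes its electrons from ferredoxin, encoded by Fdx1, which ferredoxin reductase, encoded by Fdxr, reduces with NADPH. A dehydrogenase outside this list then makes progesterone, and the enzyme of Akr1c3 (formerly Akr1c18), 20α-hydroxysteroid dehydrogenase, reduces it to a form with little progestin activity. In the rat this enzyme is known as a marker of regressing corpora lutea, the glands left by ovulated follicles. Tspo encodes an outer mitochondrial membrane protein that binds cholesterol, and Stard3 encodes a late endosome protein with a cholesterol-binding START domain like that of Star.

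In the authors' file, each gene had 1 transcript line and overlapped no other listed gene. Star (ENSRNOG00000015052) lay on the minus strand of chromosome 16 from 71036204 to 71040847, with 7 exons. Cyp11a1 (ENSRNOG00000008074) lay on the plus strand of chromosome 8 from 62779875 to 62809893, with 10 exons. Fdx1 (ENSRNOG00000012123) was on the minus strand of the same chromosome from 56373723 to 56393233, with 4 exons, and Fdxr (ENSRNOG00000058497) was on the minus strand of chromosome 10 from 103817704 to 103826448, with 12 exons. Akr1c3 (ENSRNOG00000017531) was on the plus strand of chromosome 17 from 69761118 to 69778021, with 9 exons. It belongs to a family of genes of similar sequence, so reads shared with a relative may have been assigned to either. Tspo (ENSRNOG00000010549) was on the plus strand of chromosome 7 from 124460358 to 124470609, with 4 exons, and Stard3 (ENSRNOG00000042044) was on the plus strand of chromosome 10 from 86313383 to 86335923, with 15 exons. The sources used here do not name the genome build of these coordinates.

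Promoter sequences were taken from RefSeq (GRCr8) as the 250 bases before the start of transcription. They were given for 5 of the 7 genes, and none was given for Star and Tspo. They are shown because Cyp11a1, Fdx1, Fdxr and Akr1c3 fell in the PCOS group, while Stard3 is a gene of the list that did not pass the test. Capitals mark CAAGG or its reverse complement CCTTG, the core of the site bound by the nuclear receptors SF-1 and LRH-1, a motif that was added after the sequences were seen.
Cyp11a1 chr8:67318415-67318664 (plus strand): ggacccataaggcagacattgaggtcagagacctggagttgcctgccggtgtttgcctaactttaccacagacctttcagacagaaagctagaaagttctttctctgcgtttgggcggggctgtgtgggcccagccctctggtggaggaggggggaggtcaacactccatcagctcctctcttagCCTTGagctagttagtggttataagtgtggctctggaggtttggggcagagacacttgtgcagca
Fdx1 chr8:61183646-61183895 (minus strand): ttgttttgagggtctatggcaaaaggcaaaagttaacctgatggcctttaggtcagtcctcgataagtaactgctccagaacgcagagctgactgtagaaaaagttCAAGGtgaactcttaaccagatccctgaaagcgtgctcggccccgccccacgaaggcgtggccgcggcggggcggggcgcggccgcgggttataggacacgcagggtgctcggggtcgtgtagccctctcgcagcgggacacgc
Fdxr chr10:101015536-101015785 (minus strand): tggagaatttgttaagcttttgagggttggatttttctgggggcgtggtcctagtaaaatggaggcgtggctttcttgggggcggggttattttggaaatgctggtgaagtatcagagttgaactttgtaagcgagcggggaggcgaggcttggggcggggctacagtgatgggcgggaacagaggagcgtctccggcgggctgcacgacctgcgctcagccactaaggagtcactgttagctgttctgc
Akr1c3 chr17:71020634-71020883 (plus strand): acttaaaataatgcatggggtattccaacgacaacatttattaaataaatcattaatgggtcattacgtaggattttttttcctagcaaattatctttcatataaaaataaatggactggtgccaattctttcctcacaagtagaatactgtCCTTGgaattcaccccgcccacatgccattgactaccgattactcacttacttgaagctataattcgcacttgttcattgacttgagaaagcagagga
Stard3 chr10:83853473-83853722 (plus strand): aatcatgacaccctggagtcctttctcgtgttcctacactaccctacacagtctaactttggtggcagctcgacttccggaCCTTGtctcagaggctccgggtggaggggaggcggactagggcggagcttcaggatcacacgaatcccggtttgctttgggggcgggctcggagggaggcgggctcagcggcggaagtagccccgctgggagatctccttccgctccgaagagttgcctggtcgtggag
CAAGG was found once each in Cyp11a1, Fdx1, Akr1c3 and Stard3 and not in Fdxr, and 46.3% of 33469 rat promoters of this length held it on either strand. In Cyp11a1 it began 65 bases before the start, in Akr1c3 98, in Fdx1 144 and in Stard3 169. The longer site AAGGNCA, which can share bases with CAAGG, was found in Fdx1 and Akr1c3, and 17.6% of all promoters held it. The GATA motif GATAA was found in the same pair (23.5% of all promoters). The GC box GGGCGG was found in all 5 (30.5%). TATAAA was found in Akr1c3 (12.9%). The cyclic AMP response core TGACG was in none of the 5 windows (18.2%). These are letter matches on both strands, and no factor binding was measured.

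Expression was deposited as FPKM, a level scaled to the length of the transcript and the depth of the library, so that genes can be set side by side. Summed FPKM was 339830 to 373758 per library, and 17576 to 18247 genes were above 0. Read depth was not given in the sources used here. If the steps between the lowest values are single fragments, the libraries held about 30300000 to 37100000 fragments each, although only 31.5% to 36.3% of low values lay within 0.05 of a whole step, where 10% would by chance. At that depth even the lowest of these genes, Stard3, would rest on 983 to 1496 fragments per library. The test was limma on log2(FPKM + 1). It covered 13430 genes whose mean over the 12 libraries reached 1 FPKM, and a gene was called at a Benjamini-Hochberg adjusted p under 0.05. All fold changes below are on this log2 scale unless FPKM means are given. Control replicate 3 stood apart in that its 4 detected markers of ciliated oviduct epithelium summed to 73.8 FPKM, where the 8 PCOS and PCOS-MV libraries were at 3.93 to 7.43 FPKM. Control replicate 4 was at 15.7 FPKM, and Control replicates 1 and 2 were at 3.80 and 4.76 FPKM. The tests of PCOS against control were repeated without Control replicate 3. Of the 28 other genes named by the rule in the methods, 27 were called with it and the same 27 without it, and Eif3f was called only without it (adjusted p = 0.0304). The list genes among the 28 were picked for being called without overlap in PCOS against control. Their calls with Control replicate 3 were thus fixed beforehand, and the repeat says little of genes not picked this way.

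Star, the gene of the first transfer step, was among the most abundant transcripts of the control ovary, at rank 7 of all genes by mean FPKM. Its control values were 2793, 2309, 1910 and 1864 FPKM in replicates 1 to 4. In the PCOS group they were 1151, 462, 550 and 699 FPKM. In the PCOS-MV group they were 2105, 1631, 2891 and 1589 FPKM. Every PCOS library was below every library of the other groups, and the control and PCOS-MV groups overlapped. The mean was 2219 ± 432 FPKM (SD, n = 4) in the control group, 716 ± 306 in the PCOS group and 2054 ± 605 in the PCOS-MV group, and the rank moved from 7 to 40 and back to 8. Star was thus 3.10-fold lower in PCOS by its mean, with a log2 fold change of −1.70 (SE 0.28, 95% interval −2.33 to −1.07, adjusted p = 0.00241). It was 2.87-fold higher in PCOS-MV than in PCOS, with a log2 fold change of 1.57 (SE 0.31, 0.87 to 2.26, adjusted p = 0.00742). The PCOS libraries enter both of these comparisons, so a low PCOS value moves both.

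The other cholesterol carriers did not follow Star past the threshold. Stard3 was at 18.1, 18.3, 20.9 and 19.0 FPKM in the control libraries, at 18.8, 17.7, 15.4 and 17.4 in the PCOS libraries and at 17.4, 18.6, 19.2 and 19.98 in the PCOS-MV libraries. The groups overlapped throughout. Its log2 fold change was −0.13 in PCOS against control (95% interval −0.31 to 0.05, adjusted p = 0.264) and 0.11 in PCOS-MV against PCOS (−0.07 to 0.29, adjusted p = 0.342). Tspo was at 61.1, 36.3, 38.6 and 44.6 FPKM in the control libraries, 45.4, 58.9, 45.5 and 54.4 in the PCOS libraries and 49.8, 55.5, 38.7 and 62.4 in the PCOS-MV libraries. The control group alone spanned nearly the whole range of the other groups. The log2 fold change of Tspo was 0.19 in PCOS against control (−0.19 to 0.57, adjusted p = 0.422) and 0.00 in PCOS-MV against PCOS (−0.34 to 0.35, adjusted p = 0.989), so the intervals of both genes left out a 2-fold change in either direction.

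**Figure D1:**
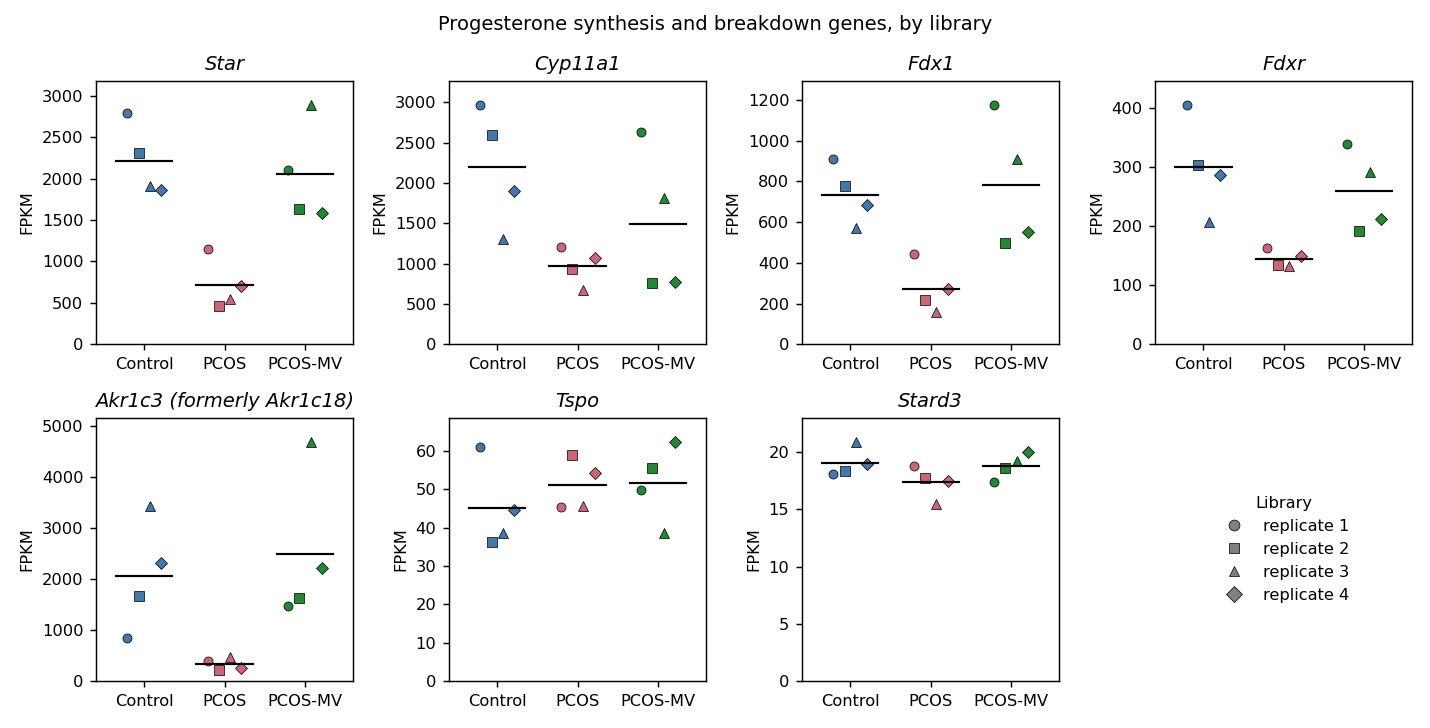
FPKM (linear axis from 0) of each gene in each library, 4 per group, where symbols mark the replicate and the line is the group mean. Star, Cyp11a1, Fdx1, Fdxr and Akr1c3 are lower in all 4 PCOS libraries than in all 4 control libraries, while Tspo and Stard3 overlap between the groups.

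All 3 genes of the side-chain cleavage system fell in the PCOS ovary. Cyp11a1, the enzyme itself, was at 2967, 2596, 1307 and 1906 FPKM in the control libraries. In the PCOS libraries it was at 1201, 931, 672 and 1069 FPKM, all below the lowest control library. In the PCOS-MV libraries it was at 2632, 757, 1808 and 772 FPKM, so replicates 1 and 3 were above all PCOS libraries and replicates 2 and 4 were within the PCOS range. Cyp11a1 was 2.27-fold lower in PCOS than in control by its mean, with a log2 fold change of −1.14 (SE 0.28, 95% interval −1.78 to −0.51, adjusted p = 0.0161). Without Control replicate 3, the lowest control library for this gene, the change was −1.37 (adjusted p = 0.00364). Its call was lost when no filter was set on low values (adjusted p = 0.0603) and with 1 model for all 12 libraries (adjusted p = 0.0549). In PCOS-MV against PCOS its log2 fold change was 0.45 (SE 0.42, −0.50 to 1.40, adjusted p = 0.466), which did not pass the test, and the interval held a rise of more than 2-fold as well as a fall.

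Fdx1, the ferredoxin that hands electrons to the enzyme, was at 909, 776, 573 and 685 FPKM in the control libraries, at 442, 216, 161 and 270 in the PCOS libraries and at 1176, 497, 912 and 552 in the PCOS-MV libraries. All PCOS libraries were below all others. The log2 fold change was −1.51 in PCOS against control (SE 0.29, adjusted p = 0.00547) and 1.53 in PCOS-MV against PCOS (SE 0.36, adjusted p = 0.0162). Fdxr, the reductase before it in the chain, was at 405, 304, 207 and 286 FPKM in the control libraries, at 163, 134, 132 and 150 in the PCOS libraries and at 339, 193, 291 and 212 in the PCOS-MV libraries. The PCOS libraries again lay below all others, and they were close to each other, at 145 ± 14.5 FPKM (SD, n = 4) against 301 ± 81.5 in the control group. Its log2 fold change was −1.01 in PCOS against control (SE 0.19, adjusted p = 0.00436) and 0.80 in PCOS-MV against PCOS (SE 0.18, adjusted p = 0.0134).

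Akr1c3 (formerly Akr1c18), the gene of the enzyme that inactivates progesterone, had the widest range of the 7. It was at 833, 1658, 3428 and 2305 FPKM in the control libraries. In the PCOS libraries it was at 386, 221, 460 and 254 FPKM, and in the PCOS-MV libraries at 1466, 1618, 4692 and 2210 FPKM. Each PCOS library was below each library of the other groups, which overlapped. Its mean was 2056 ± 1095 FPKM (SD, n = 4) in the control group, 330 ± 112 in PCOS and 2496 ± 1498 in PCOS-MV, which put it at rank 10, 129 and 6 of all genes. The log2 fold change was −2.52 in PCOS against control (SE 0.42, 95% interval −3.48 to −1.56, adjusted p = 0.00281) and 2.81 in PCOS-MV against PCOS (SE 0.39, 1.93 to 3.70, adjusted p = 0.00152). Without Control replicate 3, which had the highest control value, the first of these was −2.22 (adjusted p = 0.00386). Of 5 other tested genes of the Akr1c family, limma called 0 in PCOS against control (0 at an unadjusted p under 0.05), and Akr1c14 alone was called in PCOS-MV against PCOS, where it was lower (88 to 56 FPKM by the means, log2 fold change −0.64, adjusted p = 0.00479).

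Counted together, 4 of the 6 genes found by name fell in PCOS against control (Star, Cyp11a1, Fdx1 and Fdxr) and none rose, where 15.6% of all genes tested were called lower and 11.9% higher. Their groups did not overlap, which held in the lower direction for 17.2% of all genes. The median log2 fold change of the 6 was −1.08, beside −0.03 for all genes. In PCOS-MV against PCOS, 3 of the 6 rose (Star, Fdx1 and Fdxr) and none fell, where 14.3% of all genes were called higher and 11.4% lower, and 16.7% had a higher group without overlap. The median of the 6 was 0.62, beside 0.03 for all genes. In PCOS-MV against control, limma called 0 of the 6 genes and 0 had an unadjusted p under 0.05, and 0.00745% of all genes were called, or 1 gene. Of all genes, 1142 (8.5%) passed the unadjusted threshold, and the groups of 5.1% of genes did not overlap. With 4 libraries a group the interval of that last comparison is wide for some genes. Cyp11a1 had a log2 fold change of −0.70 (−1.74 to 0.35, adjusted p = 0.670), and Akr1c3 had one of 0.29 (−0.85 to 1.44, adjusted p = 0.873). Star had −0.14 (−0.68 to 0.40), Fdx1 0.02 (−0.64 to 0.69) and Fdxr −0.21 (−0.77 to 0.34). The intervals of Tspo (−0.25 to 0.64) and Stard3 (−0.19 to 0.15) were narrower. Leaving out any 1 library kept 4 genes lower in PCOS against control and 3 higher in PCOS-MV against PCOS.

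**Figure D2:**
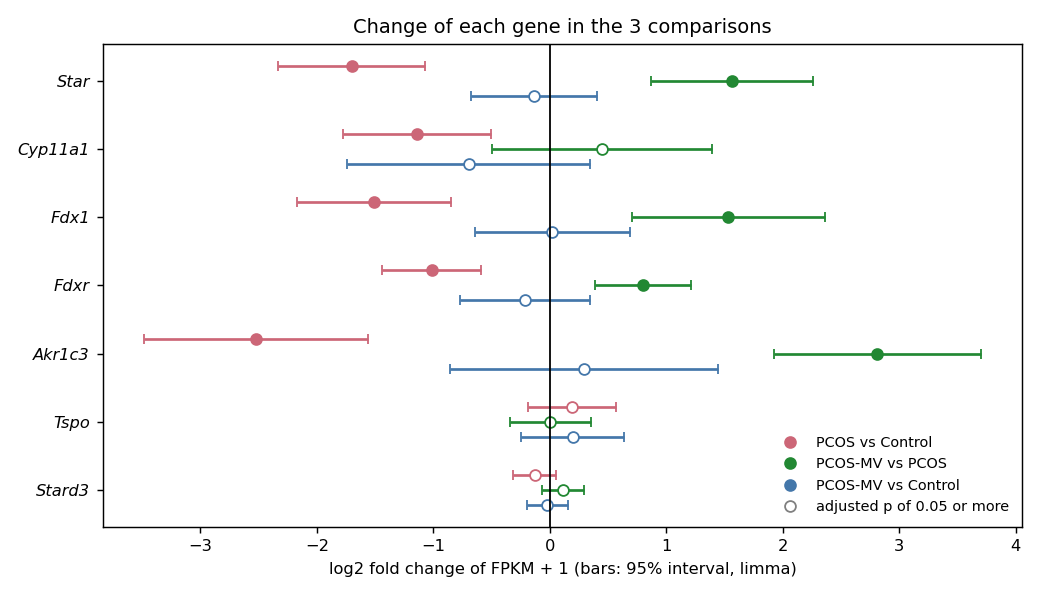
Log2 fold change (horizontal axis, log2 of FPKM + 1) of each gene in the 3 comparisons, with 95% intervals from limma, 4 libraries per group. Filled points have an adjusted p under 0.05. Akr1c3 moved furthest, by −2.52 and 2.81, and all 7 open points of PCOS-MV against control have intervals that include 0.

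The order of the levels changed between the groups. In the control ovary the means ran from Star through Cyp11a1, Akr1c3, Fdx1, Fdxr and Tspo to Stard3, and each of the first 4 overlapped its neighbour, whereas Fdxr, Tspo and Stard3 stood apart from the genes before them. In the PCOS ovary Cyp11a1 was first and overlapped Star, and Akr1c3, Fdx1 and Fdxr formed an overlapping series below them. In the PCOS-MV ovary Akr1c3 was first, with overlapping values down to Fdx1.

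Ratios of 2 genes within a library do not depend on its scaling, and are given as a description. Akr1c3 over Cyp11a1, the breakdown enzyme against the enzyme of the first step, was 0.281, 0.639, 2.62 and 1.21 in the control libraries, 0.321, 0.238, 0.684 and 0.238 in the PCOS libraries and 0.557, 2.14, 2.59 and 2.86 in the PCOS-MV libraries. Control replicates 1 and 2 and PCOS-MV replicate 1 were within the PCOS range, so this ratio did not divide the groups. Star over Stard3 had a median of 112 in control, 37.9 in PCOS and 104 in PCOS-MV. Its highest PCOS value of 61.2 was under the lowest control value of 91.3 and the lowest PCOS-MV value of 79.5. Fdx1 over Fdxr had medians of 2.47, 1.71 and 2.87, and PCOS replicate 1 at 2.71 was within the control range of 2.24 to 2.77. Star over Cyp11a1 was 0.7997 in PCOS-MV replicate 1 and 2.16, 1.60 and 2.06 in replicates 2 to 4, against 0.890 to 1.46 in control and 0.496 to 0.958 in PCOS. Another ratio was chosen after its values were seen. Fdx1 over Cyp11a1 was 0.447 to 0.715 in the PCOS-MV libraries, above the control range of 0.299 to 0.439 and the PCOS range of 0.232 to 0.368.

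**Figure D3:**
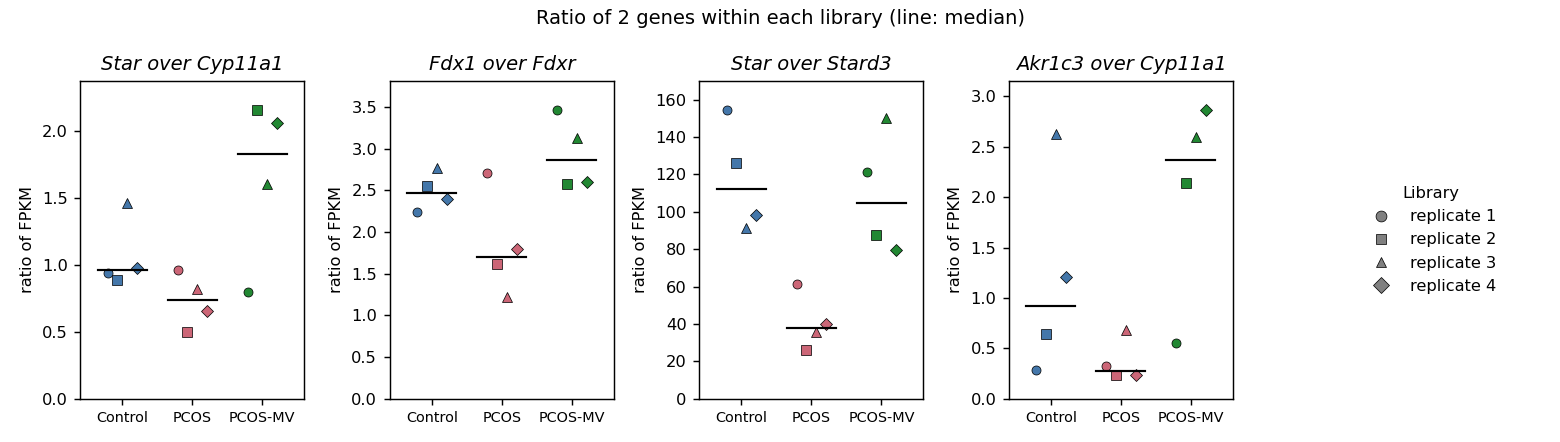
Ratio of the FPKM of 2 genes within each library (linear axes from 0) for the 4 libraries of each group, with the median as a line. Star over Stard3 is at most 61.2 in the PCOS libraries and at least 79.5 in all others, while Akr1c3 over Cyp11a1 overlaps between all groups.

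Within a group, the libraries ranked alike for the 3 genes of the side-chain cleavage system. Cyp11a1, Fdx1 and Fdxr had the same order of libraries in each of the 3 groups, from replicate 1 down through 2 and 4 to 3 in the control group, for example. Akr1c3 had the reverse of that order in the control group. In Control replicate 3, Akr1c3 was highest and Cyp11a1 lowest, and in Control replicate 1 it was the other way round. The order of Akr1c3 was not the reverse in the other groups. In the PCOS group, replicate 3 was lowest for Cyp11a1 and highest for Akr1c3, but replicate 1 was highest for Cyp11a1 and at rank 2 for Akr1c3. In the PCOS-MV group, replicate 1 was highest for Cyp11a1 and lowest for Akr1c3, but replicate 3 was highest for Akr1c3 and at rank 2 for Cyp11a1.

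The genes most like 3 of the members were found by Pearson correlation of log2(FPKM + 1) over the 12 libraries among 12073 other genes with a symbol. These correlations take in the differences between the groups and the shared library, and are a description. For Star they were Rangap1 (r = 0.972), Osgin1 (0.967) and Cep170b (0.967). For Cyp11a1 they were Scarb1 (0.985), Eif3f (0.982) and Ppp1cc (0.969). For Akr1c3 they were Ptk2b (0.988), Mgll (0.979) and Ptgfr (0.979). Scarb1 had the same split among PCOS-MV libraries as Cyp11a1, at 1932, 451, 1352 and 431 FPKM in replicates 1 to 4. Ptk2b was at 35.3 to 76.9 FPKM in control, 9.56 to 16.0 in PCOS and 42.6 to 128 in PCOS-MV.

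Genes around this pathway moved in both directions. Of 92 tested genes on 8 lists, 19 (20.7%) were called higher and 12 (13.0%) lower in PCOS against control, beside 11.9% and 15.6% of all genes, with a median log2 fold change of −0.00. In PCOS-MV against PCOS 13 (14.1%) were called higher and 20 (21.7%) lower, beside 14.3% and 11.4% of all genes. The counts of single lists below stand beside the same shares of all genes. In PCOS-MV against control limma called 0 of them, and 6 had an unadjusted p under 0.05. The genes taken from these 8 lists below had to be called without overlap in PCOS against control, unless chosen after their values were seen. Their separation in that comparison was thus set by the choice. Of the 16 genes of cholesterol supply, 5 rose and 4 fell in PCOS, and without Control replicate 3 only 2 rose. Scarb1, the receptor through which ovarian cells take up cholesterol from HDL, fell from 1420 ± 609 to 537 ± 168 FPKM (SD, n = 4, log2 fold change −1.34, adjusted p = 0.0188), a call lost in 3 of 14 alternatives (highest adjusted p = 0.0632), among them leaving out Control replicate 2 or PCOS replicate 3. It was at 1042 ± 733 FPKM in PCOS-MV, which did not pass the test against PCOS (0.70, adjusted p = 0.340). Soat1, which esterifies cholesterol for storage, was at 188 to 267 FPKM in control, 116 to 154 in PCOS and 189 to 382 in PCOS-MV, with log2 fold changes of −0.72 (adjusted p = 0.00465) and 1.02 (adjusted p = 0.00795). Lipa, the lysosomal lipase that frees cholesterol from its esters, fell by 0.64 on the log2 scale and then rose by 0.77. Abca1, which exports cholesterol, went the other way, from 35.7 to 87.7 FPKM and back to 51.0, with log2 fold changes of 1.27 and −0.77.

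Of the 12 genes of mitochondrial import, 1 rose and 1 fell in PCOS. Dbi, whose product is an acyl-CoA-binding protein and the known peptide ligand of the Tspo protein, was at 171, 124, 85.4 and 100.1 FPKM in the control libraries and at 624, 573, 579 and 829 in the PCOS libraries. In the PCOS-MV libraries it was back at 152, 104, 122 and 108 FPKM. The PCOS libraries were far above all others, with log2 fold changes of 2.46 (SE 0.22, adjusted p = 9.49e-05) and −2.41 (SE 0.16, adjusted p = 7.42e-05), while Tspo itself showed no called change. Tomm20, a receptor of the outer membrane import complex, fell by 0.48 and rose by 0.41, and the rise was lost in 8 alternatives (highest adjusted p = 0.0993).

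Of 12 tested genes for the next steps of steroid synthesis, 2 rose and 2 fell in PCOS. Hsd3b3, a hydroxysteroid dehydrogenase of the kind that turns pregnenolone into progesterone, was at 2884, 2608, 2016 and 2952 FPKM in control. In the PCOS libraries it was at 1733, 1602, 1450 and 1696 FPKM, below all of these, and in the PCOS-MV libraries at 3284, 2389, 3232 and 2678. Its log2 fold changes were −0.68 (adjusted p = 0.00941) and 0.83 (adjusted p = 0.00533), and both calls were lost when no filter was set on low values (adjusted p = 0.182 and 0.101). The 2 genes that rose lie further on the way to androgens and estrogens. Cyp17a1, whose enzyme uses progesterone to make androgens, had means of 34.6, 1190 and 37.4 FPKM, and Cyp19a1, the aromatase that letrozole inhibits, had means of 16.7, 58.5 and 11.5 FPKM, each in the order control, PCOS, PCOS-MV. Srd5a1, a steroid reductase that also acts on progesterone, had log2 fold changes of −0.92 and 1.120, and its calls were lost in 1 of the alternatives in the first comparison and in 8 in the second (highest adjusted p = 0.0941).

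Of 7 tested electron chain partners, Cyp27a1, another mitochondrial P450 that takes electrons from ferredoxin, rose by 0.94 in PCOS and fell by 0.50 in PCOS-MV against PCOS. Iscu, the scaffold on which the iron-sulfur clusters that ferredoxin needs are built, rose by 0.70 and fell by 0.86. Both thus moved against Fdx1 and Fdxr. Of 12 tested relatives with a START domain, 2 rose and 3 fell in PCOS. Pctp, a phosphatidylcholine carrier, had log2 fold changes of −0.79 and 0.85, Acot11, an acyl-CoA thioesterase, had 1.07 and −0.83, and Stard8 had −0.58 and 0.20, of which the last did not pass the test (adjusted p = 0.366).

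**Figure D4:**
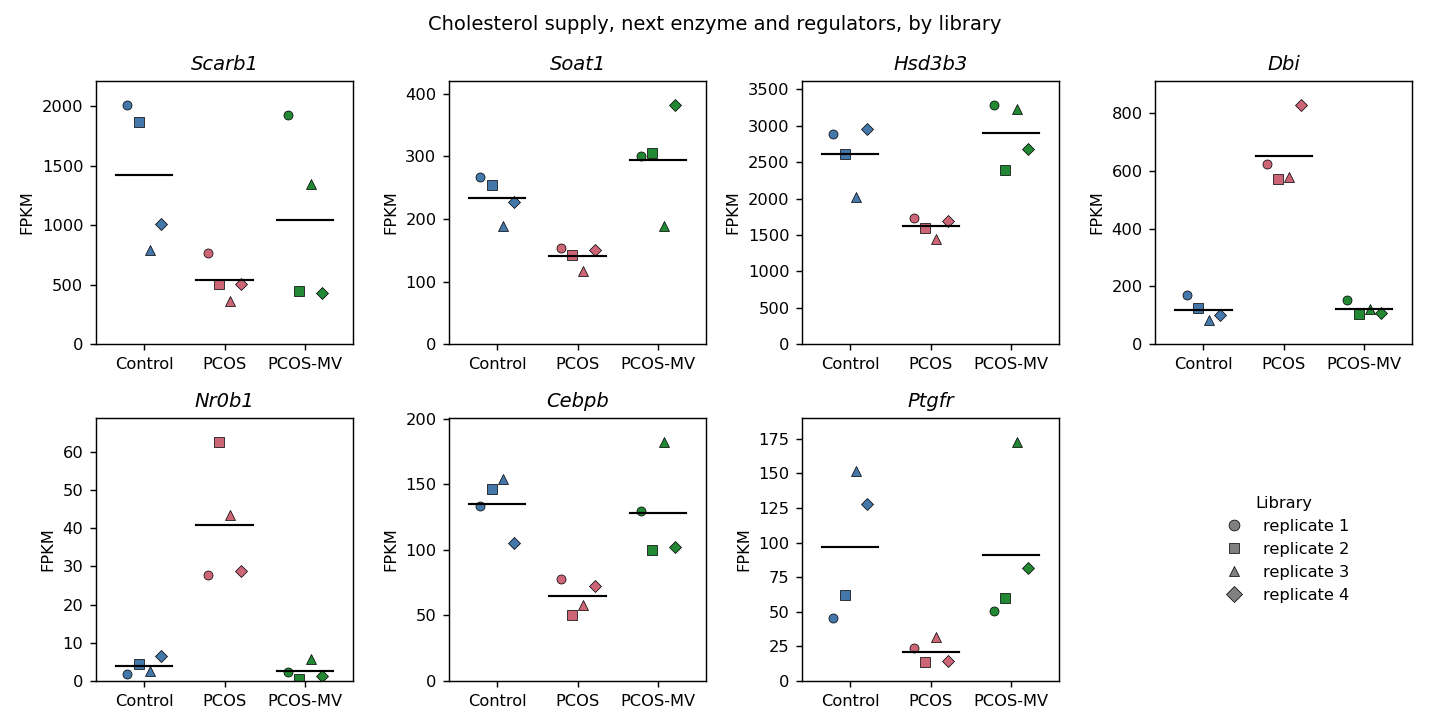
FPKM (linear axis from 0) of 7 genes around the pathway in each library, with symbols for the replicate and the group mean as a line. Scarb1, Soat1, Hsd3b3, Cebpb and Ptgfr are lower in the PCOS libraries than in all control libraries, and Dbi and Nr0b1 are higher. All 7 were picked from the lists for being called without overlap in PCOS against control, so this separation was set by the choice.

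Of 22 regulators and hormone receptors, 6 rose and 2 fell in PCOS (4 fell without Control replicate 3), and 2 rose and 7 fell in PCOS-MV against PCOS. Nr0b1, which encodes DAX-1, a corepressor known to hold down Star transcription, was at 1.92, 4.35, 2.62 and 6.49 FPKM in control and at 27.9, 62.6, 43.4 and 28.9 in PCOS. It was at 2.30, 0.543, 5.81 and 1.21 FPKM in PCOS-MV. Its log2 fold changes were 3.12 (SE 0.34, adjusted p = 0.000315) and −3.74 (SE 0.45, adjusted p = 0.000803), which placed Nr0b1 opposite to Star in both comparisons. The PCOS libraries enter both of these, and a link between Nr0b1 and Star was not tested. Nr5a1, which encodes SF-1, an activator of Star and Cyp11a1 and the partner of DAX-1, was added after its values were seen. It had means of 53.9, 112 and 67.2 FPKM, with log2 fold changes of 1.04 (adjusted p = 7.52e-05) and −0.75 (adjusted p = 0.00786), so it was higher where Star and Cyp11a1 were lower. Nr5a2, which encodes LRH-1, was also added after its values were seen, and its means went the way of Star. They were 42.8, 23.0 and 38.7 FPKM. Its log2 fold changes of −0.77 (adjusted p = 0.101) and 0.65 (adjusted p = 0.136) were not called by limma. Cebpb, a transcription factor induced by luteinizing hormone, went with Star, at 105 to 154 FPKM in control, 50.4 to 77.7 in PCOS and 99.5 to 182 in PCOS-MV (log2 fold changes −1.06 and 0.96). Lhcgr, the receptor of luteinizing hormone, rose by 1.39 and fell by 1.89, and the calls were lost in 1 and 5 alternatives (highest adjusted p = 0.0683). Ptgfr, the receptor of prostaglandin F2α, the hormone that ends the life of the rat corpus luteum and raises Akr1c18 there, was at 45.7, 61.9, 152 and 128 FPKM in control, 23.6, 13.9, 31.8 and 14.6 in PCOS and 50.3, 60.2, 173 and 81.5 in PCOS-MV. The PCOS libraries were below all others, with log2 fold changes of −2.07 (adjusted p = 0.00683) and 1.97 (adjusted p = 0.00859).

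Of 9 tested genes on the list of progesterone receptors and their relatives, 2 rose in PCOS and none fell. Paqr7, a membrane progestin receptor, went from 14.7 to 36.7 and back to 16.5 FPKM (log2 fold changes 1.25 and −1.10), and Paqr6, another of this family, had changes of 1.005 and −0.68, of which the second was lost in 9 alternatives (highest adjusted p = 0.0932). The nuclear progesterone receptor Pgr, named after its values were seen, was at 0.0903 to 0.567 FPKM in 11 libraries and at 13.0 FPKM in Control replicate 3, the library with the oviduct markers. It reached the mean of 1 FPKM needed for the test only through that library. Pgr was not called in PCOS against control (adjusted p = 0.264), and this test says little of the other libraries.

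**Figure D5:**
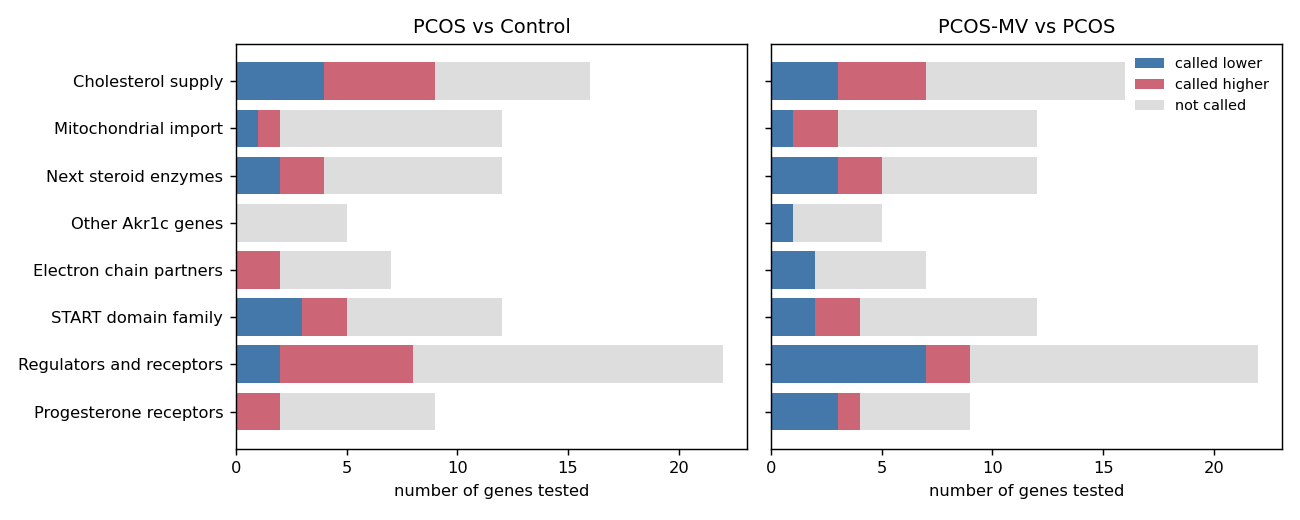
Number of genes tested on each of 8 lists around the pathway (horizontal axis), divided into those called lower, called higher and not called by limma, for PCOS against control and PCOS-MV against PCOS. In PCOS against control, cholesterol supply, mitochondrial import, the next enzymes, the START domain family and the regulators each hold genes called in both directions, and the other Akr1c genes hold none called.

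Whole ovaries were sequenced, so fewer cells of a type and less RNA per cell cannot be told apart. On stained ovary sections, the paper reported few corpora lutea in the PCOS group and more in the control and PCOS-MV groups. Whether that difference accounts for any of these transcript levels was not tested. Markers of several ovarian cell types were present. The theca and endothelial sums divided the PCOS libraries from all others, whereas the luteal and smooth muscle sums overlapped between all groups. The 6 luteal markers found, most of whose sum is Scarb1, summed to 1073 to 2269 FPKM in control, 619 to 1158 in PCOS and 599 to 2208 in PCOS-MV. PCOS-MV replicates 2 and 4, at 599 and 625, were the libraries with low Cyp11a1. Scarb1 made up 451 and 431 FPKM of these sums. It was found above as the gene most correlated with Cyp11a1, so this match is not separate evidence on luteal cells. Singly, 2 of the 6 rose and 2 fell in PCOS. The 5 theca markers summed to 114 to 154 FPKM in control, 1695 to 3182 in PCOS and 108 to 195 in PCOS-MV, and the 9 granulosa markers to 738 to 1002, 1136 to 1640 and 655 to 1208. Most of the theca sum in PCOS was Cyp17a1 and Insl3, with means of 1190 and 1032 FPKM. Taken singly, 3 of the 5 theca markers rose in PCOS and 1 fell, and 4 of the 9 granulosa markers rose and 1 fell. All 4 endothelial markers fell in PCOS, from sums of 80.6 to 103 FPKM to sums of 47.0 to 57.7, and 2 of them rose in PCOS-MV against PCOS (68.4 to 95.6). Of 4 tested adipocyte markers, 3 fell in PCOS. The 6 adipocyte markers found summed to 15.7 to 63.2 FPKM in control, 3.89 to 8.38 in PCOS and 6.31 to 37.1 in PCOS-MV. Of the smooth muscle and oocyte markers, 5 tested each, none was called in PCOS against control, while 1 of 4 leukocyte markers rose and 1 of 5 proliferation markers fell. Without Control replicate 3, 5 of 5 proliferation markers and 1 of 5 oocyte markers were called lower, and the 1 theca marker called lower with it was not. The part of these cell types in the progesterone genes was not tested. Of the adrenal cortex markers, which would mark steroid-producing cells from outside the ovary, Cyp11b2, Cyp21a1 and Mc2r were under 1 FPKM in all 12 libraries. Akr1b7, the fourth found, had means of 8.67 FPKM in control, 8.39 in PCOS and 11.2 in PCOS-MV and was not called. The oviduct markers were highest in Control replicate 3, and without it Star was lower in PCOS by a log2 fold change of −1.77 (adjusted p = 0.00399), Fdx1 by −1.62 (adjusted p = 0.00620) and Fdxr by −1.18 (adjusted p = 0.000708). Tspo had 0.13 and Stard3 −0.088 without it, neither called (adjusted p = 0.620 and 0.459).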

How the data were processed

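Ovarian RNA of 12 rats, 1 library per rat and 4 per group, was analysed, with groups and replicate numbers taken from the sample labels. Per the paper's methods, the authors aligned reads with HISAT2, counted them with featureCounts and computed FPKM. The submitters' processing notes name STAR 2.5.1b and HTSeq 0.6.0 instead, and the genome build is not given in the sources used here. The deposited FPKM table holds 26928 transcript lines of 19730 genes, and 1 line per gene was kept, since the values did not differ between lines. The authors' group means and the results columns of their own tests (fold changes with raw and adjusted p-values) were not used. The strand setting of the counting was not given.

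Tables were made in Python 3.11.15 with pandas 2.3.3. log2(FPKM + 1) was tested with limma 3.58.1 in R 4.3.3 (lmFit, eBayes with trend) on the 8 libraries of each pair of groups, without covariates, on 13430 genes whose mean reached 1 FPKM, because a count test cannot be run on FPKM. This scale understates changes of low genes. Libraries of a group correlated over all genes at r = 0.954 to 0.987 in control, 0.986 to 0.989 in PCOS and 0.977 to 0.989 in PCOS-MV. In 10 simulated sets of PCOS against control over 13430 genes, 92.6% of 200 genes changed by 1.5 on the log2 scale were recovered, with 4.88% false calls. The simulated noise was normal and independent between genes, and a far smaller share of genes was changed than was called here. These rates therefore check the code and do not measure error in the real data.

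The members and gene lists were chosen with earlier results of these data known. Named genes were the members, up to 4 called genes of each list with the largest change and no overlap in PCOS against control, and the 3 genes most correlated with each of Star, Cyp11a1 and Akr1c3 (formerly Akr1c18). Others are said to be chosen after their values were seen. Alternatives covered the pseudocount, the filter, 1 model for all libraries, rescaling, the replicate number as a block, a 2-fold threshold and leaving out each library. Each library is labelled as a separate rat, and the paper's methods give 3 biological replicates for the authors' own test, where 4 libraries per group were analysed here.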

Additional observations from a re-analysis of the deposited data

Results flagged for a closer look

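Over 57 quantities in 3 groups of 4 libraries, or 171 groups, 9 held a library whose gap to the nearest other passed the critical value of Dixon's test at 95%, and chance gives about 1 in 20, or 8.55. None of the 7 genes of progesterone synthesis and breakdown was among them. Of their ratios, Star over Cyp11a1 was 1.46 in Control replicate 3, where the other control libraries were at 0.890 to 0.978, and Fdx1 over Cyp11a1 was 0.368 in PCOS replicate 1, where the others were at 0.232 to 0.252. Control replicate 3 also had the highest Pgr, at 13.0 FPKM against 0.213 to 0.567 in the other control libraries, and the highest sum of oviduct cilia markers, at 73.8 FPKM against 3.80 to 15.7. PCOS-MV replicate 3 was highest in its group for Rangap1 (57.3 FPKM, others 37.9 to 41.1), Mgll (66.4 FPKM, others 30.0 to 35.5) and the summed endothelial markers (95.6 FPKM, others 68.4 to 71.3). Insl3, a theca marker, was at 14.5 FPKM in PCOS-MV replicate 1 (others 4.91 to 6.27), and the leukocyte markers summed to 63.1 FPKM in PCOS-MV replicate 2 (others 51.7 to 52.5).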

How the results depend on the processing

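All 90 counts of called members under an alternative stayed within 1.5 times the main count. Of 294 alternative values of the 7 genes, 279 kept their direction and their side of the threshold. Cyp11a1 in PCOS against control kept its log2 fold change of −1.14 but lost its call with no filter on low values (adjusted p = 0.0603) and with 1 model for all 12 libraries (adjusted p = 0.0549), and each of these left 3 members called lower. The cause was not tested. The 2-fold threshold left Star and Fdx1 called higher in PCOS-MV against PCOS. Of 780 alternative values of the other named genes, 739 kept their side of the threshold, 40 lost a call, 1 gained one and 0 reversed. All 13 reversed values of the 7 genes belonged to comparisons in which the gene was not called. Tspo in PCOS-MV against PCOS was −0.019 with libraries rescaled by their median ratio, and ran from −0.093 to 0.13 when each library was left out. In PCOS-MV against control, leaving out 1 library gave Fdx1 −0.20 to 0.21, Akr1c3 −0.082 to 0.60 and Stard3 −0.049 to 0.022.

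Over all genes, the 2-fold threshold left 436 genes higher and 471 lower in PCOS against control, and 360 and 391 in PCOS-MV against PCOS. Leaving out each library gave 1218 to 1639 higher and 1539 to 2276 lower in the former, and 1272 to 1934 and 1167 to 1420 in the latter, where the higher counts were lowest without PCOS replicate 4 (1272) and PCOS replicate 2 (1278). In PCOS-MV against control, 0 genes were higher with a mean of at least 5 FPKM, with 1 model and with the replicate block, 1 was lower with 1 model, and leaving out each library gave 1 to 2 higher and 0 to 2 lower.

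The labels do not say that a replicate number pairs rats, and the numbers were not taken as pairs, since not every correlation of deviations between same-numbered libraries was over 0.1. These were −0.033 to 0.024 for control with PCOS and −0.053 to 0.22 for control with PCOS-MV. For PCOS with PCOS-MV they were 0.035 to 0.17, with 3 of 4 over 0.1, other numbers gave −0.16 to 0.038, and 7 of 8 libraries correlated best with their own number, which is a hint from the data and not from the design. With the replicate block, 1239 genes were higher and 1666 lower in PCOS against control, and 1706 and 1373 in PCOS-MV against PCOS, and 4 members were called lower and 3 higher as without it. Read depth was not given in the sources used here and was only estimated from the steps between low values.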
